A study of Homo sapiens with 16 samples.

Results

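The integrin and laminin subunit genes were followed in A673 Ewing sarcoma cells while their fusion oncogene EWS-FLI1 was depleted. Members were all genes whose probe sets carried exactly 1 symbol of an integrin alpha chain, an integrin beta chain or a laminin alpha, beta or gamma chain. The rule found 33 genes, 23 integrins and 10 laminins, of 11963 genes in all, on 68 probe sets of the array. Of these, 18 members (12 integrins and 6 laminins) reached a log2 value of 4 on at least 2 arrays and were tested, and 15 stayed below that filter. The integrin chains ITGA11, ITGAD and ITGB6 were not analysed here.

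A673 is an established Ewing sarcoma line, and the cells were the clone Asp14, a single clone that carries a doxycycline-inducible knockdown construct against EWS-FLI1. The groups were cells at the moment of doxycycline addition (0 h, 4 arrays) and cells after 18 h (3 arrays), 36 h (3 arrays), 53 h (2 arrays), 72 h (2 arrays) and 96 h (2 arrays) of doxycycline at 1 ug per ml. All groups grew under Zeocin and Blasticidin, which select for the hairpin vector and the repressor vector. No untreated cells were sampled after 0 h, so time in culture, doxycycline itself and loss of the fusion cannot be told apart. The labels number the replicates without naming separate cultures, so p-values here reflect variation among these arrays alone, and that variation may be purely technical.

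Integrins are transmembrane receptors made of an alpha and a beta chain. They bind matrix proteins outside the cell and connect through talin, kindlin and other adaptors to the actin cytoskeleton inside it. Laminins are trimers of an alpha, a beta and a gamma chain that polymerise into the basement membrane, where they are bound by laminin-binding integrins and by dystroglycan. ITGB1 is the shared partner of most alpha chains, while ITGB3, ITGB5 and ITGB8 pair with ITGAV. Ewing sarcoma is a tumour of small round cells, and EWS-FLI1 is an ETS-family transcription factor that recognises the core GGAA.

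The 250 bases before the annotated start of transcription are shown for 5 members, chosen after their values were seen. LAMA4 had the highest fitted change among the members, and LAMB1 and LAMC1 encode chains that join it in a laminin trimer. ITGA4 had the highest change among the integrins that were above log2 4 at 0 h, and ITGAE was the member that fell. The sequences are from RefSeq on GRCh38.p14 and read 5′ to 3′ toward the start: LAMA4 at chr6:112254568-112254817 on the minus strand, LAMB1 at chr7:108003162-108003411 on the minus strand, LAMC1 at chr1:183023170-183023419 on the plus strand, ITGA4 at chr2:181457136-181457385 on the plus strand and ITGAE at chr17:3801189-3801438 on the minus strand. Capitals mark the ETS core GGAA or, for the opposite strand, TTCC.
LAMA4: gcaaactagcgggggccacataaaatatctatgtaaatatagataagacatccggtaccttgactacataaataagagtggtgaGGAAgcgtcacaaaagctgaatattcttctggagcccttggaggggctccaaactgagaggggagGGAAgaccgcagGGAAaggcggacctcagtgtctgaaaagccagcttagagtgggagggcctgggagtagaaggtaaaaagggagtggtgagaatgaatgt
LAMB1: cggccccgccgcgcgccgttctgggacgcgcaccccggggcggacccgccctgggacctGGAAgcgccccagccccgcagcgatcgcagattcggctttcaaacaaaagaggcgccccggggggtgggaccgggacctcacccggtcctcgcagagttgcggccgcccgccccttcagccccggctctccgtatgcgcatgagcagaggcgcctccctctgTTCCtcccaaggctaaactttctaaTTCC
LAMC1: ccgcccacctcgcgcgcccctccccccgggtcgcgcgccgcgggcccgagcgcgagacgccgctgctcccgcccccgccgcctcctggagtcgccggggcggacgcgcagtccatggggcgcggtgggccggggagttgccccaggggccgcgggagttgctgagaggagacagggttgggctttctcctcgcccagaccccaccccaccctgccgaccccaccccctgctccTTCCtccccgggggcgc
ITGA4: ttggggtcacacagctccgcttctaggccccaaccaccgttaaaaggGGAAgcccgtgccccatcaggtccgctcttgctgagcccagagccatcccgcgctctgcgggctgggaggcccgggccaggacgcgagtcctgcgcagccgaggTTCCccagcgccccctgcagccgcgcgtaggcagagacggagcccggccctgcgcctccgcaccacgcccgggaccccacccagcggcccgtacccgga
ITGAE: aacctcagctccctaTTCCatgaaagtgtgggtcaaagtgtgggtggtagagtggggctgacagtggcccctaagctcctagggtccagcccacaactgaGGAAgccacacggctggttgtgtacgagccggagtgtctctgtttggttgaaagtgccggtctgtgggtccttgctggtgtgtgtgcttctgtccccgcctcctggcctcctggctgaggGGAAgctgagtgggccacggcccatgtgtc

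The LAMA4, LAMB1 and ITGAE windows each held 3 copies of the core on either strand, the ITGA4 window held 2 and the LAMC1 window held 1. The member that fell thus carried as many copies as LAMA4 and LAMB1. A promoter window was available for 16 of the 18 tested members, 23 windows in all, and 21 of those windows held the core. Of all 35116 windows of this length, 92.7% held it, with a median of 3 copies against 2 in the tested members. Adjacent copies, GGAAGGAA on either strand, occurred in 1 of the 23 windows, that of LAMB2, which held 9 cores, against 3.06% of all windows. A match describes letters in this window and says nothing of binding.

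The target was checked by FLI1, whose 3' part is carried by the fusion transcript. Its log2 value was 9.99 to 10.17 on the 4 arrays at 0 h and 6.34 to 7.16 on all later arrays, which did not overlap, a change of -3.20 at 18 h and -3.35 at 96 h. The upper quartile of log2 values lay between 8.08 and 8.18 on every array. The log2 difference between the 3' and 5' probe sets of ACTB was less even. It was 2.21, 2.45 and 2.09 at 36 h, 1.70 and 1.61 at 72 h, and 1.47 on replicate 4 at 0 h. Its bearing on the members was not tested. Array values carry no read depth, and precision is limited by how few arrays each group has. Of the markers fixed for the labelled line, 7 of 8 reached log2 4 on at least 2 arrays. The summed log2 level of these 8, FLI1 among them, was 78.3 to 80.9 at 0 h and 57.2 to 57.9 at 96 h.

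Most tested integrin and laminin genes rose after induction, and 1, ITGAE, fell. At 18 h, 3 of the 18 were higher (ITGA4, ITGA6 and LAMC1) and 0 were lower by limma at an adjusted p of 0.05, where 14.8% of all 7304 tested genes were called higher and 14.7% lower. At 36 h, 11 were higher and 1 was lower, against 33.2% and 32.1% of all genes. At 53 h the counts were 14 and 1, against 31.8% and 34.5%, and at 72 h they were 17 and 1, against 29.3% and 39.2%. At 96 h, 16 were higher and 1 was lower, against 25.1% and 35.7% of all genes. The median change of the members was 0.03, 0.70, 1.19, 1.62 and 2.12 on the log2 scale at the successive times, while the median over all tested genes stayed between -0.11 and 0.02.

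These counts and medians need to be read in 2 groups. Of the 18 members, 7 (ITGA1, ITGA2, ITGA8, ITGA9, ITGB3, LAMA4 and LAMB3) were below log2 4 at 0 h. They passed the filter only through later arrays, so that they had to be higher. The other 11 reached log2 4 on at least 2 arrays at 0 h. Of these 11, 3 were higher at 18 h, and 10 were higher and 1 lower at each of 36 h, 53 h, 72 h and 96 h. Among all 6813 genes that reached log2 4 at 0 h in the same way, 14.4%, 31.9%, 29.6%, 26.4% and 22.7% were higher at the 5 successive times. The median change of the 11 was 0.28, 1.43, 1.35, 1.58 and 2.10 at these times. Over the 6813 genes it was 0.01, -0.01, -0.07, -0.17 and -0.14. The 18 tested members passed limma's moderated F test over the 5 changes, with adjusted p from 2.7e-12 to 0.000851, as did 84.0% of all tested genes, and 83.7% of the genes above log2 4 at 0 h against 11 of 11 members. The earliest call came at 18 h for 3 members, at 36 h for 9, at 53 h for ITGA1, ITGA8 and ITGA9, and at 72 h for ITGA2, ITGB3 and LAMB3.

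**Figure D1:**
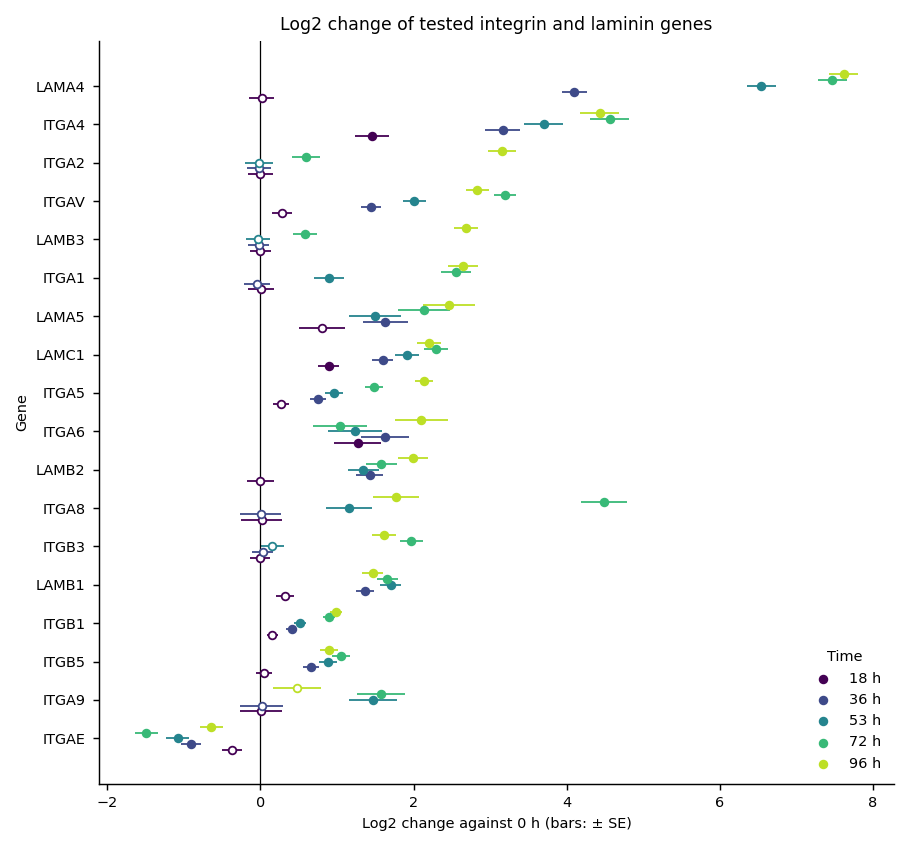
Log2 change against 0 h (horizontal axis) of each of the 18 tested members (vertical axis), with bars of ± 1 SE; colours give the time, filled points passed an adjusted p of 0.05 in limma and open points did not. LAMA4 lies farthest to the right at 7.62 at 96 h, and ITGAE lies left of 0 at all times.

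Replicate 1 stood apart for some members at both 0 h and 18 h. Replicate 1 at 0 h gave 5.46 for ITGA6 against 4.18 to 4.42 on the other 3 arrays, 6.49 for LAMA5 against 5.22 to 5.55, and 11.27 for ITGAE against 11.52 to 11.56. At 18 h, replicate 1 gave 6.45 for ITGA6 against 5.42 and 5.65, and 6.94 for LAMA5 against 6.27 and 6.19. For ITGAE it gave 10.71 against 11.29 and 11.30. Leaving out only the 0 h array kept replicate 1 in the 18 h group, so the 2 groups were then unlike in replicates. The 18 h count was then 5 higher and 1 lower. LAMA5 (1.08, adjusted p = 0.0060 by limma) and ITGB1 (0.21, adjusted p = 0.0258) were added as higher and ITGAE (-0.43, adjusted p = 0.0304) as lower. With the replicate number as a block the 18 h count was also 5 higher, the additions being ITGAV (0.41, adjusted p = 0.0192) and LAMA5 (0.66, adjusted p = 0.0149). With arrays centred on their medians, ITGAE (-0.37, adjusted p = 0.0466) was called lower at 18 h as well. The 18 h count was 5 higher also without either 96 h array, the additions being ITGA5 (0.27, adjusted p = 0.0364 and 0.0362) and LAMB1 (0.32, adjusted p = 0.0260 and 0.0259).

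ITGAV and ITGA5, alpha chains of receptors for ligands with the tripeptide RGD, rose from 36 h on. ITGAV, the alpha chain of the vitronectin receptors, had log2 values of 9.55, 9.70, 9.74 and 10.15 at 0 h, 10.14, 10.05 and 10.01 at 18 h, 11.29, 11.29 and 11.11 at 36 h, 11.96 and 11.63 at 53 h, 12.92 and 13.03 at 72 h, and 12.79 and 12.44 at 96 h. The 0 h and 18 h arrays overlapped, and every array from 36 h on was above every array at 0 h. The rise was 3.20 ± 0.15 (SE, adjusted p = 6.6e-10 by limma) at 72 h, or 9.17-fold, and 2.83 ± 0.15 (adjusted p = 3.8e-09) at 96 h, or 7.13-fold. ITGA5, the alpha chain of the fibronectin receptor, had smaller changes and was still higher at 96 h than at 72 h. Its values were 8.88 to 9.02 at 0 h, 9.09 to 9.40 at 18 h, 9.57 to 9.86 at 36 h, 9.92 and 9.88 at 53 h, 10.47 and 10.39 at 72 h, and 11.26 and 10.88 at 96 h. The 18 h change of 0.27 did not pass (adjusted p = 0.0639), the 96 h change was 2.13 ± 0.12 (adjusted p = 6.8e-09), or 4.38-fold, and 96 h was above 72 h by 0.64 ± 0.14 (adjusted p = 0.00329).

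The beta partners of ITGAV differed in where they started. ITGB5 was well above the filter at 0 h, with 9.92 to 10.17, and was at 10.64 to 10.80 at 36 h and 11.05 and 11.15 at 72 h, without overlap with 0 h. Its change was 0.66 ± 0.10 (SE, adjusted p = 6.6e-05 by limma) at 36 h, 1.05 ± 0.12 (adjusted p = 2.4e-06) at 72 h and 0.90 ± 0.12 (adjusted p = 1.9e-05) at 96 h. ITGB3, the beta chain of the osteopontin and vitronectin receptor on platelets and osteoclasts, stayed at 2.37 to 2.70 on every array through 53 h. It reached 4.09 and 4.63 at 72 h and 4.01 and 3.99 at 96 h, at least 1.28-fold higher at 72 h when background is set at log2 4. Its other 6 probe sets did not exceed 3.24 on any array. ITGB8 did not pass the filter. ITGA8, which pairs with ITGB1 and binds nephronectin and fibronectin, was transient.

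ITGA8 lay between 2.43 and 2.50 on all 10 arrays through 36 h, at 3.41 and 3.85 at 53 h, at 7.09 and 6.84 at 72 h, and at 3.45 and 5.05 at 96 h. It was at least 7.79-fold higher at 72 h than at 0 h and fell by 2.72 ± 0.35 (SE, adjusted p = 7.1e-05 by limma) from 72 h to 96 h, with no overlap between these arrays. That difference was -1.91 without replicate 1 of 96 h and -3.52 without replicate 2, and the change at 96 h against 0 h (1.77) was then 2.57 and 0.97. The call for 53 h (1.15, adjusted p = 0.0040) rested on values below log2 4 and was lost with replicate 2 of that time left out (0.94, adjusted p = 0.0588).

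**Figure D2:**
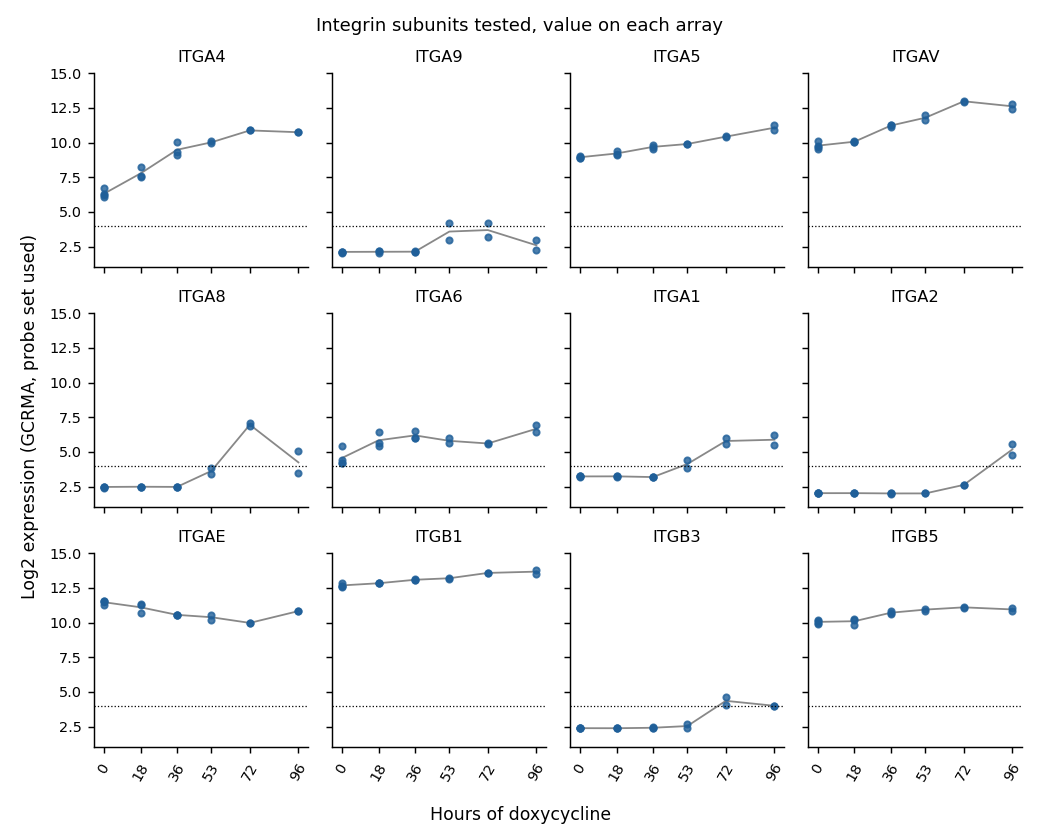
Log2 expression (vertical axis) of the 12 tested integrin subunits on each of the 16 arrays (points) by hours of doxycycline (horizontal axis); lines join the group means and the dotted line marks log2 4. ITGA4 and ITGAV climb from 36 h or earlier, ITGA8 peaks at 72 h, ITGA2 crosses log2 4 only at 96 h, and ITGAE declines to 72 h.

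Among the integrins above log2 4 at 0 h, the highest change was that of ITGA4, the alpha chain of a receptor for VCAM1 and fibronectin that is known best from lymphocytes, and it was called from 18 h on. Its log2 values were 6.21, 6.72, 6.29 and 6.05 at 0 h, 8.24, 7.51 and 7.58 at 18 h, 10.02, 9.08 and 9.34 at 36 h, 9.96 and 10.08 at 53 h, 10.88 and 10.88 at 72 h, and 10.75 and 10.74 at 96 h. No array after induction overlapped the 0 h arrays. The change was 1.46 ± 0.22 (SE, adjusted p = 0.000439 by limma) at 18 h, 3.16 ± 0.22 (adjusted p = 6.1e-08) at 36 h, 3.70 ± 0.25 (adjusted p = 3.6e-08) at 53 h, 4.56 ± 0.25 (adjusted p = 3.2e-09) at 72 h and 4.43 ± 0.25 (adjusted p = 9.4e-09) at 96 h, which is 21.5-fold. Its 3 probe sets gave changes of 4.43, 4.50 and 5.00 at 96 h.

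ITGA9, the nearest relative of ITGA4 and a tenascin receptor, stayed close to background. It was at 2.07 to 2.16 on all arrays through 36 h, at 4.23 and 2.95 at 53 h, at 3.21 and 4.18 at 72 h, and at 2.24 and 2.95 at 96 h. Only 2 arrays passed log2 4, at 53 h and at 72 h, and the other array of each of these groups was below it. Its call of 1.47 ± 0.32 (SE, adjusted p = 0.0010 by limma) at 53 h ranged from 0.83 to 2.11 as either 53 h array was left out and did not pass at 96 h (0.48, adjusted p = 0.210), and the fall from 72 h to 96 h (-1.10 ± 0.36, adjusted p = 0.0395) was lost when replicate 2 of 72 h (-0.62, adjusted p = 0.327) or replicate 1 of 96 h (-0.74, adjusted p = 0.268) was left out and with the replicate block (adjusted p = 0.0674). It was also just lost (adjusted p from 0.0510 to 0.0520) without replicate 2 or replicate 3 of 0 h, 18 h or 36 h.

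Of the laminin-binding alpha chains, ITGA6 was tested, and ITGA3 and ITGA7 were below the filter. ITGA6, which pairs with ITGB1 or ITGB4, had values of 5.46, 4.18, 4.22 and 4.42 at 0 h, 6.45, 5.42 and 5.65 at 18 h, 6.54, 6.03 and 6.01 at 36 h, 5.97 and 5.63 at 53 h, 5.59 and 5.62 at 72 h, and 6.91 and 6.43 at 96 h. The 18 h and 0 h arrays overlapped only through replicate 1 at 0 h, and later arrays all lay above 0 h. The change was 1.27 ± 0.31 (SE, adjusted p = 0.0081 by limma) at 18 h, 1.63 ± 0.31 (adjusted p = 0.000392) at 36 h, 1.04 ± 0.35 (adjusted p = 0.0171) at 72 h and 2.10 ± 0.35 (adjusted p = 0.00017) at 96 h. The 72 h call did not pass without either 72 h array (adjusted p = 0.0723 and 0.0803), nor did the change of 1.23 seen at 53 h (adjusted p = 0.0069) once replicate 1 of that time was left out (1.06, adjusted p = 0.0693). Its other probe set above the filter gave 1.46 at 96 h, but it did not pass at 18 h (0.75, adjusted p = 0.0946), 53 h (0.60, adjusted p = 0.157) or 72 h (0.53, adjusted p = 0.206).

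The collagen-binding chains ITGA1 and ITGA2 were called late, ITGA1 from 53 h and ITGA2 from 72 h. ITGA1 was at 3.17 to 3.25 on all arrays through 36 h, at 4.39 and 3.87 at 53 h, at 5.98 and 5.60 at 72 h, and at 6.25 and 5.51 at 96 h, at least 3.46-fold higher at 72 h and at least 3.68-fold higher at 96 h. ITGA2 stayed at 2.00 to 2.04 through 53 h, was at 2.64 and 2.62 at 72 h, still under log2 4, and reached 5.61 and 4.76 at 96 h. It was at least 2.27-fold higher at 96 h than at 72 h, a fitted difference of 2.56 ± 0.21 (SE, adjusted p = 1.9e-06 by limma). Differences fitted for genes near the floor of GCRMA are not bounds, since that method compresses dim values.

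ITGB1, the beta chain that most of these alpha chains need to reach the cell surface, rose by small amounts from a high level, with little spread between arrays. It was at 12.56 to 12.84 at 0 h, 12.82 to 12.84 at 18 h, 13.05 to 13.12 at 36 h, 13.23 and 13.16 at 53 h, 13.57 and 13.58 at 72 h, and 13.81 and 13.53 at 96 h. From 36 h on no array overlapped 0 h, and the change was 0.41 ± 0.07 (SE, adjusted p = 0.000157 by limma) at 36 h and 0.99 ± 0.08 (adjusted p = 2.3e-07) at 96 h, or 1.99-fold. Its other 4 probe sets lay at background on all arrays, and their average with the used probe set did not pass at 96 h (0.16, adjusted p = 0.0610).

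ITGAE, the alpha chain of the lymphocyte receptor for E-cadherin, was the member that went down. Its values were 11.27, 11.52, 11.56 and 11.52 at 0 h, 10.71, 11.29 and 11.30 at 18 h, 10.58, 10.53 and 10.56 at 36 h, 10.56 and 10.21 at 53 h, 9.99 and 9.96 at 72 h, and 10.83 and 10.83 at 96 h. From 36 h on all arrays were below the lowest array at 0 h. The gene fell by 1.49 ± 0.15 (SE, adjusted p = 9.5e-07 by limma) at 72 h, was -0.64 ± 0.15 (adjusted p = 0.00215) at 96 h and rose from 72 h to 96 h by 0.85 ± 0.17 (adjusted p = 0.00251). The 18 h change of -0.37 did not pass (adjusted p = 0.0521), but it did when replicate 2 (-0.46, adjusted p = 0.0352) or replicate 3 (-0.47, adjusted p = 0.0327) of 18 h or either 53 h array (-0.37, adjusted p = 0.0469 and 0.0468) was left out. Its partner chain ITGB7 and its ligand CDH1 stayed below log2 4 on all arrays. The other leukocyte chains ITGAL, ITGAM, ITGAX and ITGB2 were below the filter, and 0 of 9 blood markers reached log2 4 on 2 arrays.

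Among the laminin chains, LAMA4, the alpha chain of the laminins of vessel walls, muscle and nerve, had the highest fitted change of any member. Its log2 values were 2.49, 2.42, 2.44 and 2.49 at 0 h and 2.49, 2.46 and 2.48 at 18 h, and the 2 groups overlapped at background. They were 6.29, 6.48 and 6.91 at 36 h, 9.30 and 8.70 at 53 h, 10.03 and 9.82 at 72 h, and 10.27 and 9.89 at 96 h. LAMA4 was at least 5.90-fold higher at 36 h, at least 32.1-fold at 53 h, at least 60.8-fold at 72 h and at least 67.6-fold at 96 h. The fitted change at 96 h was 7.62 ± 0.19 (SE, adjusted p = 6.7e-12 by limma). In bulk RNA, more cells of a type and more RNA per cell cannot be told apart.

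LAMC1 and LAMB1, chains that join LAMA4 in a trimer, were already expressed at 0 h and rose by less than the LAMA4 probe set used. LAMC1, the gamma chain of most laminins, was at 9.84, 9.72, 9.57 and 9.30 at 0 h, 10.83, 10.35 and 10.33 at 18 h, 11.28, 11.12 and 11.21 at 36 h, 11.58 and 11.47 at 53 h, 11.94 and 11.87 at 72 h, and 11.97 and 11.66 at 96 h. No later array overlapped 0 h. It rose by 0.89 ± 0.14 (SE, adjusted p = 0.000506 by limma) at 18 h, before LAMA4 left background, and by 2.21 ± 0.16 (adjusted p = 8.7e-08) at 96 h, or 4.62-fold. LAMB1, a beta chain, was at 10.82 to 11.09 at 0 h, 11.20 to 11.41 at 18 h and 12.25 to 12.44 at 36 h. It was at 12.64 and 12.67 at 53 h, 12.80 and 12.42 at 72 h, and 12.66 and 12.18 at 96 h. Its 18 h arrays all lay above 0 h, but the change of 0.32 did not pass (adjusted p = 0.0569), while a second probe set did (0.34, adjusted p = 0.0190). The change was 1.70 ± 0.13 (adjusted p = 1.3e-07) at 53 h and 1.66 ± 0.13 at 72 h, which differ by less than the SE, and the gene was 2.76-fold higher at 96 h.

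The remaining laminin chains followed 2 courses. LAMA5, the broadly expressed alpha chain of mature basement membranes, was at 6.49, 5.55, 5.38 and 5.22 at 0 h, 6.94, 6.27 and 6.19 at 18 h, 7.87, 7.11 and 6.90 at 36 h, 7.25 and 7.08 at 53 h, 7.84 and 7.75 at 72 h, and 8.29 and 7.96 at 96 h. The 18 h arrays overlapped 0 h (0.81, adjusted p = 0.0570 by limma), and at 96 h the gene had risen by 2.47 ± 0.34 (SE, adjusted p = 3.3e-05), or 5.53-fold. LAMB2, a beta chain of muscle, nerve and kidney laminins, was close to the filter at 0 h and 18 h (3.80 to 4.33) and at 5.12 to 5.84 at 36 h, and ended 1.99 ± 0.20 (adjusted p = 2.2e-06) higher at 96 h, or 3.98-fold. LAMB3, a chain of the epithelial laminin that anchors skin, stayed at 2.15 to 2.20 through 53 h. It was at 2.44 and 3.11 at 72 h and at 4.87 and 4.88 at 96 h, at least 1.84-fold higher at 96 h than at 0 h. The 72 h change of LAMB3 (0.58, adjusted p = 0.00516) lay below log2 4 and was lost with replicate 2 of that time left out (0.24, adjusted p = 0.146).

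**Figure D3:**
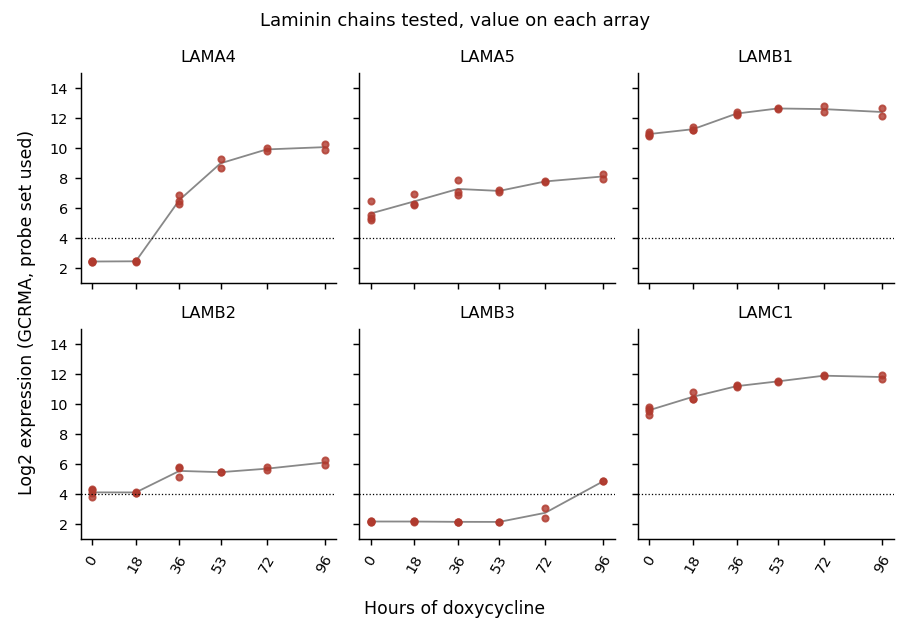
Log2 expression (vertical axis) of the 6 tested laminin chains on each of the 16 arrays (points) by hours of doxycycline (horizontal axis); lines join the group means and the dotted line marks log2 4. LAMA4 goes from background at 18 h to 9.82 and 10.03 at 72 h, LAMB1, LAMC1 and LAMA5 rise from levels above the line, and LAMB3 crosses it at 96 h.

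Changes after 18 h and after 72 h were also compared. From 18 h to 96 h, 15 of 18 members rose and 0 fell, against 19.5% and 30.0% of all genes. Of the 11 members above log2 4 at 0 h, 9 rose, against 17.3% of such genes, and the other 6 that rose were at background at 18 h and passed the filter only through later arrays. ITGA4 rose by 2.97 ± 0.27 (SE, adjusted p = 1.4e-06 by limma), or 7.84-fold, from a measured level. LAMA4 was at least 67.6-fold and ITGA2 at least 2.27-fold higher than at 18 h, when both were at background, with fitted differences of 7.60 (adjusted p = 1.3e-11) and 3.15 (adjusted p = 3.6e-08). ITGA6 (0.83, adjusted p = 0.0782), ITGA9 (0.47, adjusted p = 0.265) and ITGAE (-0.27, adjusted p = 0.166) did not pass, though ITGA6 did with the replicate block (0.70, adjusted p = 0.0395) and ITGAE did without replicate 1 of 18 h (-0.47, adjusted p = 0.00477). From 72 h to 96 h, 4 members rose (ITGA2, LAMB3, ITGAE and ITGA5) and 2 fell (ITGA8 and ITGA9), against 17.1% and 10.1% of all genes, so the share that rose was near that of all genes. ITGA2 and LAMB3 entered the test only through their 96 h arrays, and among the 11 members above log2 4 at 0 h 2 rose and 0 fell, against 17.5% of such genes that rose. With the replicate block 5 rose, ITGA6 (1.06, adjusted p = 0.0135) being added, and 1 fell. The count that fell was 3 without replicate 1 of 72 h, ITGB3 being added (-0.63, adjusted p = 0.0275), and 1 when any of the arrays named for ITGA9 was left out.

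Different probe sets of a gene did not always give the same course. LAMA4 has 5 probe sets, of which 3 passed the filter. The probe set used gave 7.62 at 96 h against 0 h, and the others gave 2.05 (adjusted p = 1.3e-06 by limma) and 2.19 (adjusted p = 5.4e-05), so all 3 rose but by unlike amounts, and the average over all 5 rose by 2.36 ± 0.10 (adjusted p = 1.2e-09). From 72 h to 96 h the used probe set changed by 0.15, while the others changed by -0.60 (adjusted p = 0.0651) and -1.26 (adjusted p = 0.0224). ITGB5 has 4 probe sets above the filter. The brightest rose by 1.05 at 72 h and 0.90 at 96 h, another rose by 2.89 at 72 h and 1.02 at 96 h, and the fall of that probe set from 72 h to 96 h was -1.87 (adjusted p = 0.000192). The remaining ITGB5 probe sets changed by 0.37 (adjusted p = 0.0146 by limma) and 0.34 (adjusted p = 0.198) at 72 h. Neither passed at 36 h, at 53 h or at 96 h (0.14, adjusted p = 0.337, and 0.40, adjusted p = 0.146). Probe sets of ITGA4, LAMB1 and LAMC1 above the filter agreed in direction at 96 h, at 1.47 and 1.63 for LAMB1 and 2.21 and 1.63 for LAMC1. Which transcripts each probe set detects was not tested.

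**Figure D4:**
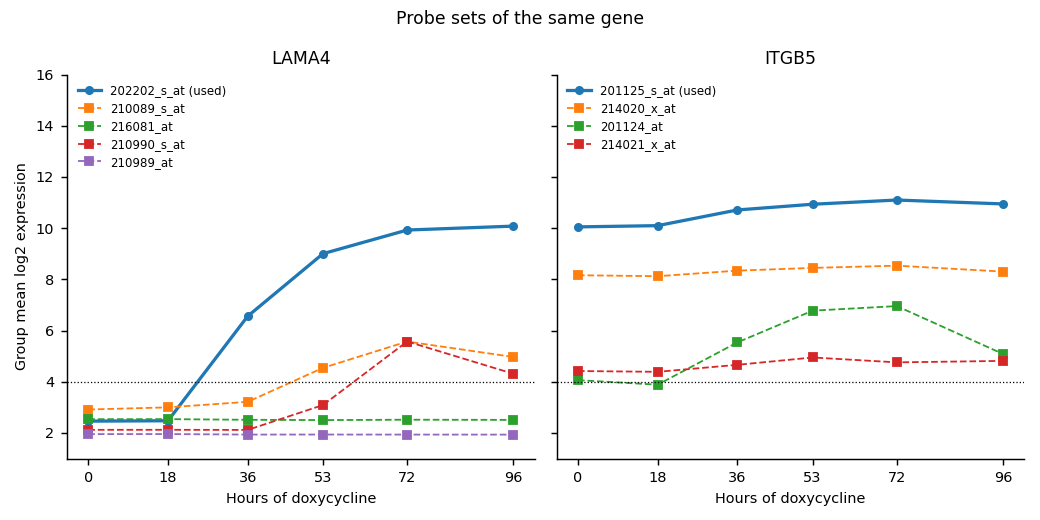
Group mean log2 expression (vertical axis) of each probe set of LAMA4 (left) and ITGB5 (right) by hours of doxycycline (horizontal axis); the thick line is the probe set used and the dotted line marks log2 4. The used LAMA4 probe set rises from 36 h to a plateau, 2 others peak at 72 h, and 1 ITGB5 probe set rises and falls far more than the used one.

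The 15 members below the filter were ITGA2B, ITGA3, ITGA7, ITGA10, ITGAL, ITGAM, ITGAX, ITGB2, ITGB4, ITGB7, ITGB8, LAMA1, LAMA2, LAMB4 and LAMC3, and the highest value on any array was 3.95. Some of them moved under the filter. In a fit without it, ITGA3, a laminin receptor of epithelia, was 1.10 higher at 96 h (adjusted p = 7.4e-07 by limma), with arrays at 3.26 and 3.73. ITGA10, a collagen receptor of cartilage, was 0.81 higher (adjusted p = 0.0011), with arrays at 3.27 and 2.39. ITGB8, which pairs with ITGAV and activates latent TGF-beta, was 0.91 higher at 53 h (adjusted p = 0.0011), with arrays at 3.13 and 3.80. The array carries no detection calls here, so these values show only that the genes were near background.

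The partners of these chains are described by lists drawn up with earlier results of these data known. Basement membrane partners of laminin (15 named on the array, 11 tested) had 3, 9, 9, 10 and 10 genes higher at the successive times and 0 lower at each. Of all tested genes, 14.8%, 33.2%, 31.8%, 29.3% and 25.1% were higher and 14.7%, 32.1%, 34.5%, 39.2% and 35.7% were lower. Of these 11 genes, 3 were off at 0 h and passed the filter only through later arrays. Of the other 8, 7 were higher at 96 h, against 22.7% of all genes above log2 4 at 0 h, with a median change of 2.06. NID2, a nidogen that links laminin to collagen IV, was at 7.06 to 7.49 at 0 h and at 11.10 and 10.87 at 96 h, without overlap, a change of 3.69 ± 0.17 (SE, adjusted p = 1.3e-09 by limma). COL4A2, a collagen IV chain, rose by 2.41 ± 0.13 (adjusted p = 4.5e-09). COL15A1, a collagen at the outer face of basement membranes, stayed at 2.19 to 2.38 through 72 h and was at 6.39 and 6.15 at 96 h, at least 4.82-fold higher. FBLN1 was the tested gene of the list that did not pass at 96 h (0.07, adjusted p = 0.785).

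Other integrin ligands (29 named, 19 tested) had 7, 14, 17, 19 and 17 genes higher at the successive times and 0 lower. Of all tested genes, 14.8%, 33.2%, 31.8%, 29.3% and 25.1% were higher and 14.7%, 32.1%, 34.5%, 39.2% and 35.7% were lower. Of the 19, 3 were off at 0 h, SPP1 among them, and had to rise. Of the other 16, 16 were higher at 72 h and 14 at 96 h, against 26.4% and 22.7% of all genes above log2 4 at 0 h, with medians of 2.89 and 2.10. From 72 h to 96 h, 0 of these 16 rose and 7 fell, where 17.5% of all genes above log2 4 at 0 h rose and 10.1% of all tested genes fell. SPP1, osteopontin, a ligand of ITGAV receptors, ITGA4 and ITGA9, was at 2.63 to 2.66 at 0 h and at 10.06 and 10.14 at 96 h, at least 68.6-fold higher. COL1A2, a chain of collagen I bound by ITGA1 and ITGA2, was at 7.66 to 8.11 at 0 h and at 12.18 and 12.38 at 96 h, a rise of 4.38 ± 0.15 (SE, adjusted p = 7.8e-11 by limma). L1CAM, an adhesion molecule with an RGD site, rose by 4.09 ± 0.26 (adjusted p = 2.4e-08). CCN1 (0.49, adjusted p = 0.209) and CCN2 (0.42, adjusted p = 0.538), matricellular ligands, did not pass at 96 h.

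Cytoplasmic adaptors of adhesion sites (32 named, 28 tested) changed in both directions. At the successive times 3, 11, 15, 18 and 16 of them were higher and 2, 6, 4, 3 and 5 were lower. Of all tested genes, 14.8%, 33.2%, 31.8%, 29.3% and 25.1% were higher and 14.7%, 32.1%, 34.5%, 39.2% and 35.7% were lower. The 18 h counts of the adaptors lay under both shares for that time. Of the 26 above log2 4 at 0 h, 14 were higher and 5 lower at 96 h, with a median change of 0.66, where 22.7% of such genes were higher. With arrays centred on their medians, 3 were lower at 96 h. TGFB1I1, a relative of paxillin, rose by 3.51 ± 0.41 (SE, adjusted p = 7.7e-06 by limma) from arrays of 3.60 to 5.82 at 0 h to 8.24 and 8.38. PXN, paxillin, rose by 0.82 ± 0.12 (adjusted p = 4.5e-05), and TNS3, a tensin, was at least 1.87-fold higher, with 1 of its 96 h arrays at 3.93. The 5 lower genes at 96 h were TRIP6 (-0.78), GIT1 (-0.91), ARHGEF7 (-0.34), CRKL (-0.25) and CSRP1 (-0.46).

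The last list held non-integrin laminin receptors and membrane proteins that associate with integrins (22 named, 18 tested). At the successive times 2, 8, 8, 14 and 13 of its genes were higher and 4, 4, 2, 1 and 2 were lower. Of all tested genes, 14.8%, 33.2%, 31.8%, 29.3% and 25.1% were higher and 14.7%, 32.1%, 34.5%, 39.2% and 35.7% were lower. Of the 16 above log2 4 at 0 h, 11 were higher and 2 lower at 96 h, beside 22.7% of such genes that were higher. SGCE, a sarcoglycan, rose by 1.11 ± 0.09 (SE, adjusted p = 2.7e-07 by limma) at 96 h. CD9, a tetraspanin, stayed at 2.81 to 4.83 through 53 h and was at 6.58 and 6.64 at 72 h and 7.59 and 8.10 at 96 h. Before 72 h only replicate 4 at 0 h (4.83) was above log2 4, so CD9 passed the filter only through later arrays and had to be higher. Its fitted change at 96 h was 4.22 ± 0.36 (adjusted p = 5.2e-07 by limma), taken largely against background. CAV1, caveolin, fell by 0.75 ± 0.06 (adjusted p = 4.9e-07) from 13.68 to 13.80 at 0 h to 13.08 and 12.87, and SLC3A2, which binds beta chains, fell by 1.15 (adjusted p = 0.0415).

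**Figure D5:**
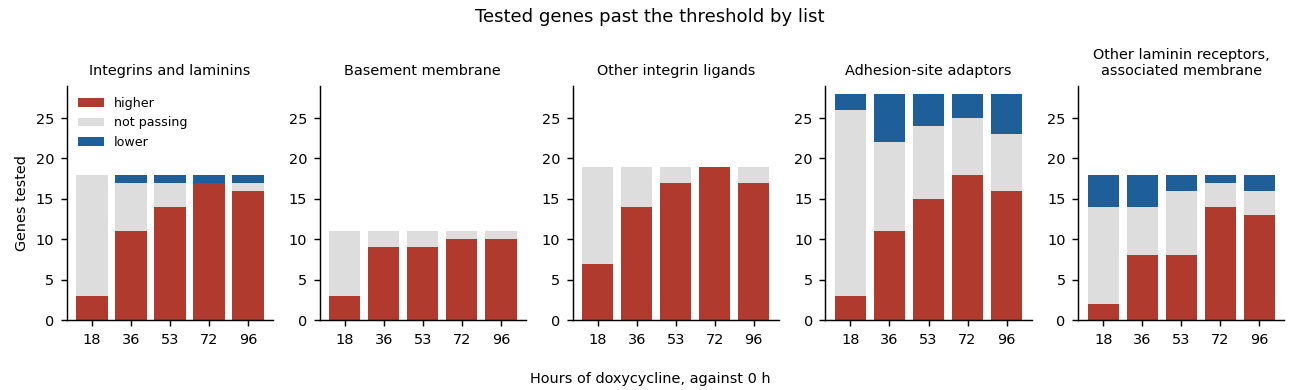
Number of tested genes (vertical axis) past an adjusted p of 0.05 and higher (red), lower (blue) or not passing (grey) at each time against 0 h (horizontal axis), for the integrin and laminin members and 4 lists of partner genes. The members have 16 higher and 1 lower gene at 96 h, and the adaptors have 16 and 5.

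Markers of other cell types were read beside these changes. Of 9 endothelial markers, 2 (KDR and EGFL7) reached log2 4 on at least 2 arrays, and PECAM1, CDH5, VWF and TIE1 did not on any array. The summed log2 level of that list was 25.1 to 26.3 at 0 h, 30.2 to 30.6 at 53 h and 26.1 to 27.4 at 96 h. KDR ranged from 3.44 to 8.64 over the 16 arrays, at 3.66 on average at 0 h and 5.20 at 96 h. EGFL7 was at 5.47 on average at 0 h and 4.44 at 96 h. Of 9 epithelial markers only KRT18 reached log2 4 on 2 arrays, at 9.06 on average at 0 h and 10.02 at 96 h. The epithelial list summed to 27.7 to 28.7 at 0 h, 25.8 to 26.3 at 36 h and 28.9 to 29.2 at 96 h, and EPCAM and CDH1 stayed below log2 4. Of 6 muscle markers 0 reached log2 4 on 2 arrays. The blood list summed to 19.5 to 19.7 at 0 h and 20.2 to 21.1 at 96 h. Within it CORO1A was at 2.23 on average at 0 h and 3.49 at 96 h, still under log2 4. Every other blood marker on the array was slightly lower on average at 96 h. The part of other cell types in these results was not tested beyond these values.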

How the data were processed

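RNA of 16 samples was hybridised to Affymetrix arrays. Values deposited by the authors are log2 levels of probe sets from GCRMA, as the submitters' processing notes name it. For its version and settings the sources used here give nothing, and the log2 scale was read from the values (0.388 to 15.2). GCRMA compresses dim values near a floor.

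Of 22277 probe sets, 19070 had 1 gene symbol, 1043 several and 2164 none, and 19058 matched RefSeq genes by Entrez identifier. Each gene was represented by the probe set whose mean over the 16 arrays was highest. Genes with log2 of at least 4 on at least 2 arrays were tested (7304 tested, 4659 left out). With limma 3.58.1 in R 4.3.3, 1 mean per time group was fitted over all 16 arrays (lmFit, eBayes with trend, 10 residual degrees of freedom), and p-values were adjusted by Benjamini-Hochberg over all tested genes, with a threshold of 0.05. The fit was tested on simulated data. A fold is called "at least" where no probe set of the gene reached log2 4 on any array of the lower group, whose level was then set to 4.

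Members and lists were chosen with earlier results of these data known. Array values are given for up to 6 highest and 6 lowest changes at 96 h against 0 h among members past the threshold with arrays that do not overlap, for up to 3 and 3 in the other comparisons, and for further members by range; from each list the 3 genes with the smallest adjusted p at 96 h are named, and other genes outside the members were named after their values were seen.

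Same-numbered samples at 0 h, 18 h and 36 h met the rule for pairing: correlations of deviations from group means were 0.632, 0.544 and 0.508 between 0 h and 18 h, 0.304, 0.214 and 0.286 between 0 h and 36 h, and 0.366, 0.244 and 0.331 between 18 h and 36 h. Numbers 2 and 3 were not told apart, since replicate 3 at 0 h correlated with replicate 2 at 18 h at 0.550 and replicate 2 at 0 h with replicate 3 at 18 h at 0.467, so the pattern sets replicate 1 apart. The numbers come from the sample titles. Between 0 h and the later groups, with 2 pairs each, they were -0.117 to 0.109. Alternatives were each of the 16 arrays left out and 11 others, among them a second normalization, centring, filters, probe set choice, array weights and a replicate block. Promoter windows are from RefSeq, GRCh38.p14, cut to 250 bases before the start. Protein sequences were not used here. 0 columns of other samples were present.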

Additional observations from a re-analysis of the deposited data

Results flagged for a closer look

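ITGAE at 0 h was marked because replicate 1 (11.27) lay far below the other 3 arrays (11.52 to 11.56), its gap being 0.863 of the range and above Dixon's critical value for 4 samples. ITGA8 at 0 h was marked because 1 array (2.43) lay below the others (2.49 to 2.50), a gap of 0.836 of the range, all at background. Chance marks about 1 in 20 groups, and 18 members were examined.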

How the results depend on the processing

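Among values for single members and FLI1 under alternatives, 3432 kept their side of the threshold. These include changes of sign between values that did not pass in either setting. A further 43 newly passed, 24 no longer passed and 1 changed sign with a passing value. The last was LAMA4 from 72 h to 96 h, at -0.34 (adjusted p = 0.0427 by limma) over the average of its probe sets against 0.15. Counts of members higher at 18 h (3) were 6 after a second quantile normalization, 7 with array weights, 5 with the replicate block and 3 to 5 with 1 array left out; lower at 18 h (0) they were 1 with arrays centred, 1 with a stricter filter, 1 with array weights and 0 to 1 with 1 array left out. Higher at 36 h (11) there were 7 when probe sets named _x_at or _s_at were dropped, and higher at 72 h (17) there were 11 with the stricter filter at log2 6. Without a filter, 4, 4, 5 and 3 were lower at 36, 53, 72 and 96 h (main 1 each) and 2 from 18 h to 96 h (main 0). For 18 h to 96 h, array weights gave 1 and leaving out an array 0 to 1. The members added as lower without a filter were all near background. Their changes lay between -0.079 (LAMB4 at 53 h) and -0.017 (LAMA1 at 36 h). From 72 h to 96 h, higher members (4) were 2 with the stricter filter; lower members (2) were 4 with probe sets averaged, 1 with the stricter filter, array weights, replicate block, replicates 2 and 3 averaged or only the compared groups, and 1 to 3 with 1 array left out. The 18 members passed the F test with each array left out. Beyond the calls given, the replicate block changed no other call of a member. Members near log2 4 (ITGA9, ITGB3 and LAMB3) are limited by signal over background, and the causes of these shifts were not tested.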
